A study of Mus musculus with 9 samples.

Results

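The Slc25 genes encode the mitochondrial solute carriers, and all 47 genes of the table whose symbol is Slc25a followed by a number were described here, out of 55385 genes. Their RNA was measured in 9 libraries of kidney cells sorted from male mice 9 to 12 weeks old, in 3 groups of 3 biological replicates. Uninjured cells came from Slc34a1IRES-CreERT2/+:R26RtdT/+ mice, in which a tamoxifen-inducible Cre at Slc34a1, a phosphate transporter gene of the proximal tubule, turns on the red fluorescent protein tdTomato. The other groups came from Sox9IRES-CreERT2/+:R26RtdT/+ mice, in which the same Cre sits at Sox9, a transcription factor gene switched on in injured tubules, after ischemia-reperfusion injury (IRI) of both kidneys. In the 48 h group labelling by tamoxifen was started with the IRI and the cells were sorted 48 h later. In the d14 group the drug followed on days 10 and 12, and sorting on day 14. All mice carried the R26RtdT reporter and a CreERT2 allele. The allele, the injury and the tamoxifen schedule differ together between uninjured and Sox9-labelled cells, so their parts in a difference cannot be told apart. In the main fit, p-values of single genes set a difference against the spread between the mice or samples within groups, estimated over all 9 libraries together. Those of count ratios come from permuting the libraries of the groups compared.

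Slc25 carriers sit mostly in the inner mitochondrial membrane, which is otherwise closed to charged metabolites, and exchange nucleotides, phosphate, carboxylates, amino acids, cofactors, iron and glutathione between the matrix and the cytosol. Most work as antiporters, so one substrate leaves as another enters. Proximal tubule cells are rich in mitochondria, burn fatty acids and keep up ammonia and glucose production, all of which draw on such carriers.

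Total counts ran from 19239354 to 51631204 in 8 libraries, while 48 h replicate 2 had 8036054. That library was also the highest of its group in Slc25a4, Slc25a10, Slc25a20 and Slc25a25 below. The 12 proximal tubule markers summed to 26135.5 to 32738 CPM (counts scaled to a common library size by TMM, a method that assumes that most genes do not differ) in uninjured libraries, 6989 to 15968 in 48 h libraries and 3565 to 6335 in d14 libraries. Of these markers 8 were lower at 48 h and 11 at d14 than in uninjured cells, among them Slc34a1 at d14 (4626 to 4807 CPM in uninjured cells, 994 to 1653 at d14). The 5 loop of Henle markers went the other way, with 149.5 to 217 CPM in uninjured libraries, 756 to 949 in 48 h libraries and 2992 to 5288 in d14 libraries, and all 5 were higher in each comparison. Markers of the distal convoluted and connecting tubule summed to 80.2 to 126, 245 to 411 and 2210.5 to 3743 CPM, and neutrophil markers to 2.80 to 8.003, 113 to 343 and 3.43 to 5.90 CPM. The neutrophil marker Ly6g was at 0 in uninjured cells. Transcripts of the mitochondrial genome took 25.1 to 29.2% of counts in uninjured, 32.7 to 39.2% in 48 h and 15.2 to 25.2% in d14 libraries. The part of these differences in the Slc25 results was not tested. In sorted bulk RNA, fewer cells of a type and less RNA per cell cannot be told apart.

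Summed over the family, carrier transcripts were at their lowest level in late Sox9-labelled cells relative to the bulk of genes. They came to 4263 ± 74.5 CPM (SD, n = 3) in the uninjured, 4017 ± 766 in the 48 h and 2598 ± 151 in the d14 libraries. The d14 libraries, at 2456 to 2756 CPM, lay below the other 6, and at 48 h replicate 2 was highest at 4880 CPM. As a share of all counts, with no scaling between libraries, the sums were 0.375 ± 0.0162%, 0.351 ± 0.0622% and 0.337 ± 0.0236%, and on this scale the d14 libraries overlapped the other groups. TMM raised the effective size of the d14 libraries, with factors of 1.21 to 1.48 against 0.846 to 0.912 in the rest. Without it, the median of all genes' log2 fold changes moved from 0.06 to 0.63 for d14 against uninjured cells and from 0.05 to 0.63 for d14 against 48 h. Directions at d14 are therefore given relative to the bulk of genes. For the Slc25 genes described and called at d14 it is said which turn without TMM, and differences not called may turn as well.

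**Figure D1:**
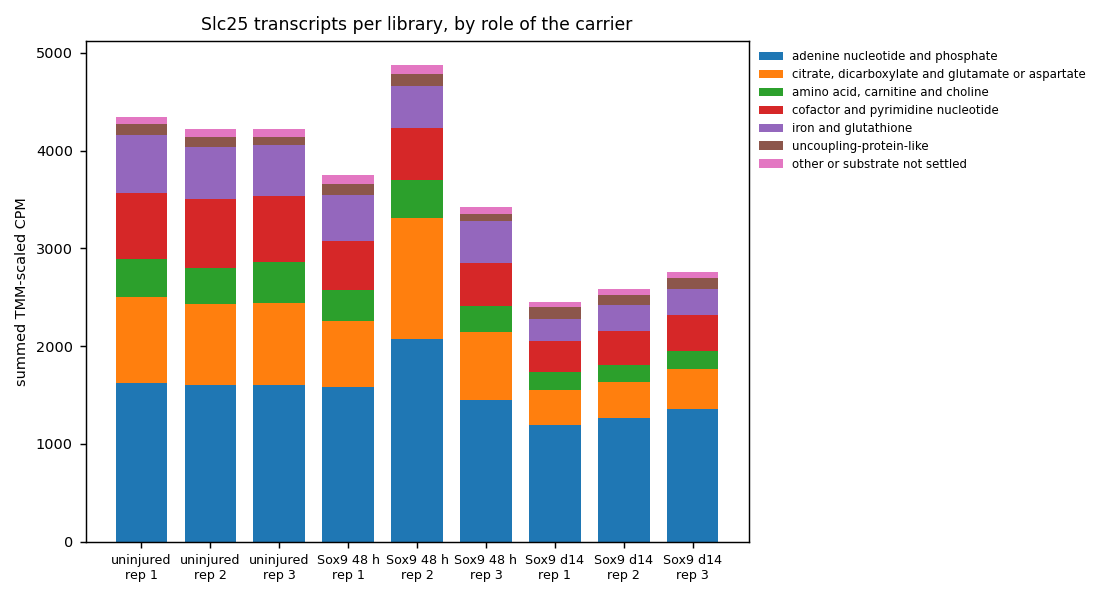
Summed TMM-scaled CPM of the Slc25 genes in each of the 9 libraries, stacked by the role of the carrier. The d14 bars end at 2456 to 2756 CPM and the uninjured bars at 4218 to 4349, while on raw counts, without TMM, the groups overlap.

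Of the 47 genes 42 passed the filter on low counts and were tested. Slc25a31, the adenine nucleotide carrier of testis, Slc25a41 and Slc25a54 had no count in any library, where 3 counts correspond to 0.0651 to 0.431 CPM. Slc25a2, an ornithine carrier, and Slc25a18, a glutamate carrier, reached at most 0.594 and 0.449 CPM and fell under the filter. Between 48 h and uninjured cells 5 of the 42 were higher and 10 lower at an adjusted p under 0.05 in edgeR's quasi-likelihood test, that is 11.9% and 23.8%, against 17.4% and 11.7% of all 15519 genes tested. Between d14 and uninjured cells 5 were higher and 25 lower (11.9% and 59.5%), against 25.1% and 20.7% of all genes. Between d14 and 48 h 5 were higher and 16 lower (11.9% and 38.1%), against 16.8% and 16.3% of all genes. The share of lower members was thus above that of all genes in each comparison and the share of higher members below it. Slc25a43, among the 5 higher in both comparisons with uninjured cells, passed the filter only through its d14 libraries. Slc25a24, also among them, would not have passed on its uninjured libraries alone. Median log2 fold changes of the members were -0.24, -0.58 and -0.31, the same with Slc25a43, which had no count in uninjured cells, at its lower bound, and those of all genes 0.02, 0.06 and 0.05. Without TMM the members' medians were -0.26, -0.02 and 0.27, so that the last of them turned, while the distance to the median of all genes stayed at -0.27, -0.64 and -0.36 against -0.26, -0.64 and -0.36 with TMM. Also without TMM, the calls for d14 against uninjured cells were 8 higher and 10 lower members, with 47.1% and 9.13% of all genes. For d14 against 48 h they were 12 higher and 9 lower, with 43.9% and 6.02% of all genes. Higher calls then made up 83.8% and 87.9% of all calls in these comparisons, against 54.8% and 50.7% with TMM. The comparisons share libraries and are set side by side, not as separate evidence. The 5 higher at 48 h were 2 without uninjured replicate 2 or 3 and 3 without uninjured replicate 1 or 48 h replicate 3, and the 10 lower were 6 without uninjured replicate 1.

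**Figure D2:**
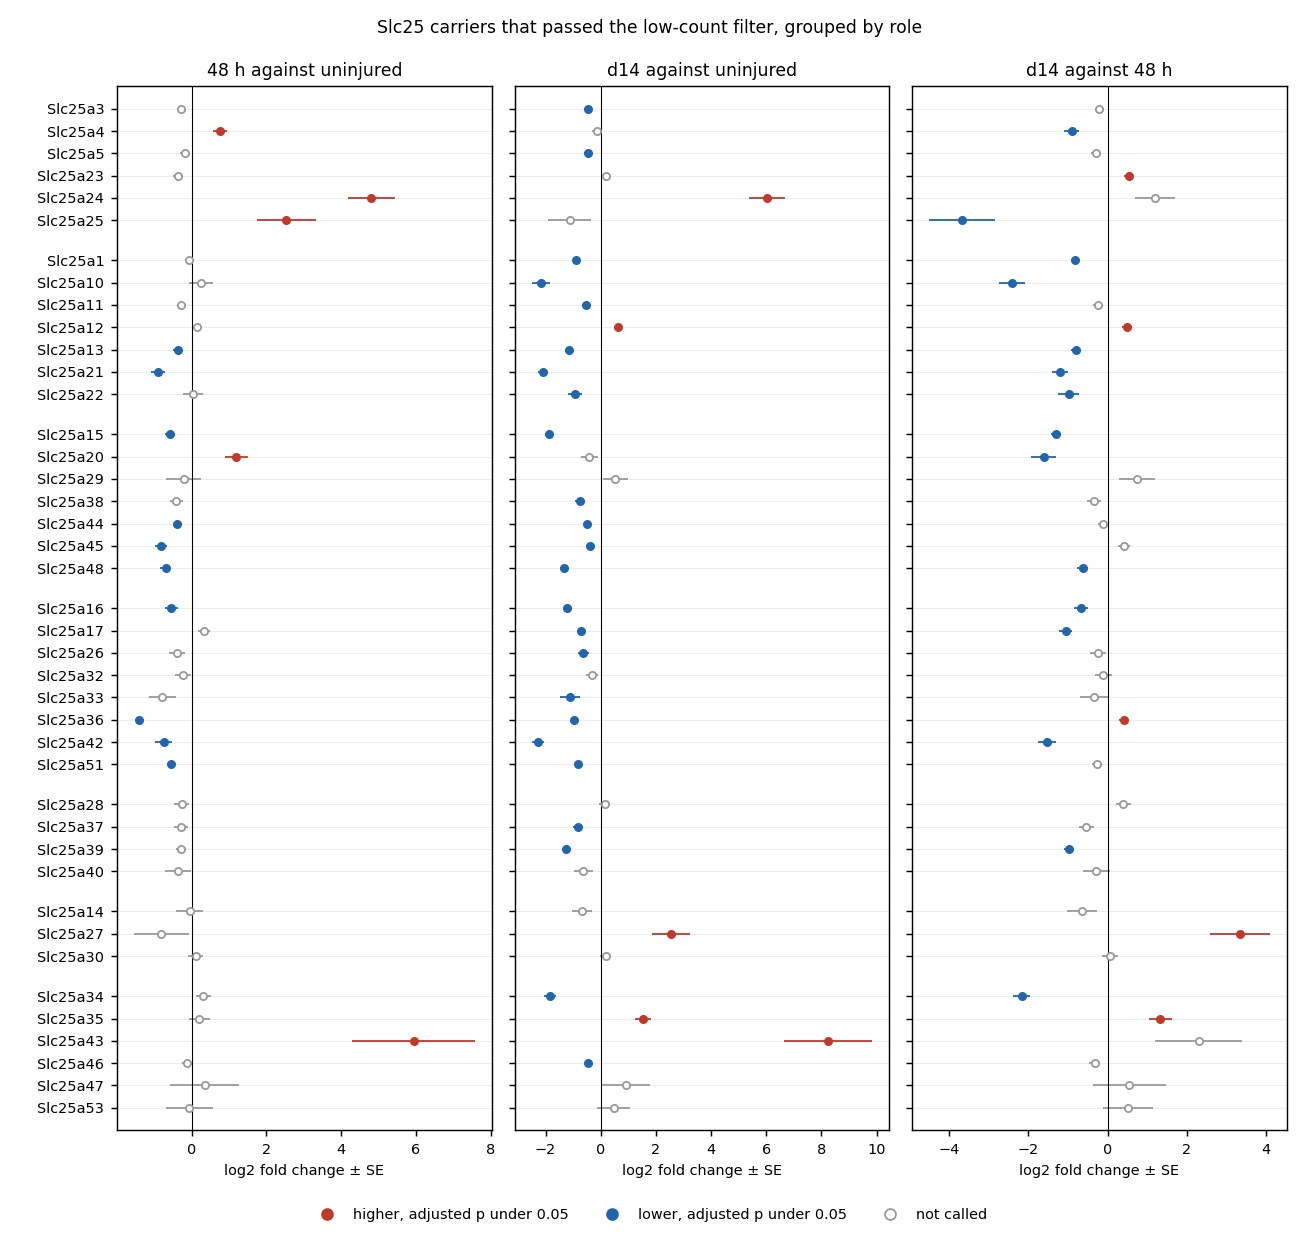
Log2 fold change with its SE of 41 tested Slc25 genes in the 3 comparisons, grouped by role; filled points are genes called higher (red) or lower (blue) at an adjusted p under 0.05. In d14 against uninjured cells 24 of the points drawn are called lower and 5 higher; without TMM Slc25a3, Slc25a5, Slc25a11, Slc25a44, Slc25a45 and Slc25a46 turn sign.

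Per kilobase of merged annotated exon, a rough scale for setting levels of different genes side by side, the family was dominated by few carriers. The length covers all exons annotated for a gene, 5550 bases for Slc25a3 and 1646 for Slc25a5, not the transcripts expressed in these cells. Shares and ranks between genes therefore depend on the annotation. Slc25a5 (ENSMUSG00000016319.3, chromosome X, 36795651 to 36798807 of GRCm38), the main adenine nucleotide translocase of proliferating and epithelial tissue, held 30.7 ± 1.15% of the family's CPM per kilobase in uninjured, 28.5 ± 2.50% in 48 h and 35.5 ± 0.730% in d14 libraries. In uninjured cells the glutathione carrier gene Slc25a39 came next with 12.7 ± 0.645%, then the dicarboxylate carrier gene Slc25a10 with 8.94 ± 0.0108%, the phosphate carrier gene Slc25a3 with 7.62 ± 0.341% and the muscle-type adenine nucleotide translocase gene Slc25a4 with 7.09 ± 0.651%. The ranges of Slc25a3 and Slc25a4 overlapped. At d14 Slc25a4 ranked second with 10.2 ± 0.221% and Slc25a3 next with 8.74 ± 0.360%, while Slc25a39 was at 8.36 ± 0.307% and Slc25a10 at 3.18 ± 0.0844%. Slc25a5 has processed pseudogenes in the genome, and reads shared with them were divided by the counting program, so its level carries an uncertainty that the replicates do not show.

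The carriers of adenine nucleotides and phosphate supply the ATP synthase with ADP and phosphate and export ATP. Of 8 such genes 6 were tested, and 3 were higher at 48 h than in uninjured cells, while at d14 1 was higher and 2 lower (2 and 0 without TMM). At 48 h none was called lower by edgeR, 2 were lower at an unadjusted p under 0.05, and DESeq2 called 1 and limma voom 0. Slc25a5 was at 722, 644 and 697 CPM in uninjured cells, 628, 659 and 534 at 48 h and 465, 484 and 543 at d14. All d14 values lay under all uninjured ones, and the 48 h values overlapped both groups. At d14 Slc25a5 was lower by 0.47 ± 0.13 on the log2 scale (adjusted p = 0.0104), but it stood at 0.09 without TMM. Slc25a3, which carries the phosphate that ATP synthesis consumes, was at 574, 593 and 559 CPM in uninjured cells, 511, 471 and 445 at 48 h and 378, 425 and 434 at d14. On this scale the 3 groups did not overlap and descended in that order, but without TMM Slc25a3 was higher at d14 than at 48 h (0.36, adjusted p = 0.0268). Only d14 against uninjured cells passed the test for Slc25a3 (-0.48 ± 0.11, adjusted p = 0.0048), with 0.08 in place of -0.48 without TMM; 48 h against uninjured cells gave -0.27 ± 0.11 (adjusted p = 0.092), a difference that DESeq2 called.

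Slc25a4 (ENSMUSG00000031633.4, chromosome 8, 46206797 to 46211284) took another course from its close relative Slc25a5. It was at 210, 240 and 231 CPM in uninjured cells, 344, 516 and 291 at 48 h and 198, 199 and 214 at d14. Every 48 h library was above every other library, with replicate 2 highest, and d14 overlapped uninjured cells. At 48 h Slc25a4 was higher by 0.76 ± 0.18 than in uninjured cells (1.69-fold, adjusted p = 0.0103), and by 0.48 without 48 h replicate 2. From 48 h to d14 it was lower by 0.91 ± 0.18 (adjusted p = 0.00364), a call lost without TMM (-0.33, adjusted p = 0.146). The ratio of Slc25a4 to Slc25a5 counts within a library, which no scaling between libraries can move, was 0.290, 0.372 and 0.331 in uninjured cells, 0.547, 0.784 and 0.544 at 48 h and 0.426, 0.412 and 0.395 at d14. The 3 groups did not overlap, with 48 h highest and uninjured cells lowest. With 3 libraries against 3 the exact permutation test, two-sided, cannot go below p = 0.1, which it gave for each pair of groups (adjusted p = 0.175 over 21 such ratio comparisons).

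Calcium-sensitive ATP-magnesium/phosphate carriers set the adenine nucleotide pool of the matrix, and their genes moved in different directions. Slc25a24 (ENSMUSG00000040322.10, chromosome 3, 109123149 to 109168457) was at 0.0869, 0.737 and 0.914 CPM in uninjured cells, 8.81, 15.1 and 23.1 at 48 h and 46.3, 32.9 and 29.6 at d14. No groups overlapped. Slc25a24 was 28.1-fold higher at 48 h (log2 4.81 ± 0.63, adjusted p = 0.000703) and 64.7-fold higher at d14 (6.02 ± 0.65, adjusted p = 7.36e-05) than in uninjured cells, and its log2 fold changes were 5.42 and 6.63 without uninjured replicate 3. On its uninjured libraries alone Slc25a24 would not have passed the low-count filter, and its folds rest on low uninjured levels. Both calls were also made without the filter. The step from 48 h to d14 did not pass the test (1.20 ± 0.50, adjusted p = 0.0991), though it did without uninjured replicate 1 (1.21, adjusted p = 0.0205), without TMM (1.79, adjusted p = 0.0292), with limma voom (adjusted p = 0.0384) and with only the 2 groups compared (adjusted p = 0.0393). Slc25a23, the relative that led this subgroup in uninjured cells per kilobase, was at 92.4, 106 and 97.04 CPM in uninjured cells, 67.5, 85.1 and 78.3 at 48 h and 97.9, 109 and 128 at d14. Its 48 h values lay below all others. It was higher at d14 than at 48 h by 0.54 ± 0.13 (adjusted p = 0.0102), while 48 h against uninjured cells gave -0.36 ± 0.13 (adjusted p = 0.0624), or -0.44 (adjusted p = 0.0394) without 48 h replicate 2. Without TMM Slc25a23 was also higher at d14 than in uninjured cells (0.73, adjusted p = 0.000676).

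Slc25a25 (ENSMUSG00000026819.15, chromosome 2, 32414487 to 32451445) differed widely between the 48 h libraries. It was at 26.9, 23.3 and 22.4 CPM in uninjured cells, 24.8, 322 and 80.6 at 48 h and 9.89, 11.6 and 11.6 at d14. One 48 h library was at the uninjured level and the other 2 above it, and all d14 values were under all others. At 48 h Slc25a25 was called higher than in uninjured cells at the edge of the threshold (2.54 ± 0.78, adjusted p = 0.0441). It was 1.12 (adjusted p = 0.0725) without 48 h replicate 2, and the call was also lost when any other single library except 48 h replicate 1 was left out (adjusted p = 0.0671 to 0.139). From 48 h to d14 it was lower by 3.68 ± 0.83 (adjusted p = 0.0121), by 2.26 without 48 h replicate 2, and not called without d14 replicate 1 (adjusted p = 0.0536). For d14 against uninjured cells the log2 fold change was -1.14 ± 0.77 (adjusted p = 0.268), which passed the test without 48 h replicate 2 (adjusted p = 0.0362). It also passed with only the 2 groups compared (-1.18, adjusted p = 5.01e-05), a fit that leaves out the spread of the 48 h libraries. Slc25a25 shares exon sequence with Naif1 on the opposite strand, and no source used here says whether the counting kept the strands apart. The ratio of Slc25a24 to Slc25a25 counts was 0.00362, 0.0323 and 0.0413 in uninjured cells, 0.356, 0.0470 and 0.287 at 48 h and 4.67, 2.85 and 2.54 at d14, so that Slc25a24 outnumbered Slc25a25 in the d14 libraries alone (exact permutation p = 0.1 and adjusted p = 0.175 for each pair of groups).

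The promoters of these 2 genes are shown because they had the largest rises at 48 h among members with more than 10 CPM there. RefSeq promoters (GRCm38.p6) were found for 36 of the 47 genes, 46 promoters in all, and the 250 bases before each start were searched on both strands for 6 motifs: CRE (TGACGTCA), E-box (CACGTG), NRF1 (GCGCA and GCGC with any 1 base between), ERR (TCAAGGTCA), HNF1 (GTTAAT and ATTAAC with any 1 base between) and DR1 (AGGTCA and AGGTCA with any 1 base between). An ERR match can overlap a DR1 match. These letters occur in 1.55%, 6.02%, 3.74%, 0.387%, 0.00913% and 0.0335% of all 32851 promoters. The Slc25a24 sequence is chr3:109122899-109123148 on the plus strand, directly before the gene. The Slc25a25 sequence is chr2:32424067-32424316 on the minus strand, before 1 of its 3 RefSeq starts, inside the gene but in no annotated exon of it. Capitals mark the match to the CRE letters, which begins 150 bases before that start; the Slc25a24 window holds none of the 6.
Slc25a24: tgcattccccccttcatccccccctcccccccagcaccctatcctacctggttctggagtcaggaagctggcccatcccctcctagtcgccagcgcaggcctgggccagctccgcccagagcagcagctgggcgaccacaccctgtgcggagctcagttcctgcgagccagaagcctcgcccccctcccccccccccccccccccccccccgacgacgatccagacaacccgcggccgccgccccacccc
Slc25a25: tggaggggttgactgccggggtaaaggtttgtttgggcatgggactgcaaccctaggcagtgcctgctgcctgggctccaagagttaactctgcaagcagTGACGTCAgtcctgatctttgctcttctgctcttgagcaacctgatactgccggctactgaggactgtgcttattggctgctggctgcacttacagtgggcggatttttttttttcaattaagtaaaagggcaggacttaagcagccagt
The CRE letters were found in promoters of 2 member genes, Slc25a25 and Slc25a36, the E-box letters in 8 promoters of 7 genes, the NRF1 letters in those of Slc25a3 and Slc25a31, and the ERR, HNF1 and DR1 letters in none of the 46. A match describes letters only.

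Carriers of citrate, dicarboxylates, oxoglutarate, glutamate and aspartate link the citric acid cycle to the cytosol and move reducing equivalents in the malate-aspartate shuttle. Of the 7 tested 2 were lower at 48 h than in uninjured cells, and at d14 6 were lower and 1 higher (3 and 1 without TMM). None was higher at 48 h by edgeR, at an unadjusted p under 0.05, by DESeq2 or by limma voom. Slc25a10 (ENSMUSG00000025792.9, chromosome 11, 120491840 to 120499187), which exchanges malate and succinate for phosphate, was at 431, 412 and 419 CPM in uninjured cells, 307, 839 and 354 at 48 h and 86.6, 91.8 and 103 at d14. The d14 libraries were far under all others, while at 48 h replicate 2 lay above and the other 2 below the uninjured range. At d14 Slc25a10 was lower by 2.17 ± 0.33 (0.223-fold, adjusted p = 0.000502) than in uninjured cells and by 2.41 ± 0.34 (adjusted p = 0.000712) than at 48 h, the latter by 1.82 without 48 h replicate 2. At 48 h its log2 fold change was 0.25 ± 0.32 (adjusted p = 0.612).

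The aspartate/glutamate carriers have a pair of isoforms, and these parted. Slc25a13, which encodes citrin, the isoform best known from liver, was at 116, 96.2 and 107 CPM in uninjured cells, 84.2, 88.8 and 74.0 at 48 h and 52.0, 41.8 and 48.1 at d14. Slc25a12, which encodes aralar, the isoform best known from brain and muscle, was at 56.1, 55.1 and 50.8 CPM in uninjured cells, 63.6, 59.4 and 56.7 at 48 h and 72.0, 86.3 and 94.2 at d14. Slc25a13 descended and Slc25a12 ascended over the 3 groups with no overlap between any of them. At d14 Slc25a13 was lower by 1.17 ± 0.13 (adjusted p = 1.95e-05) and Slc25a12 higher by 0.64 ± 0.12 (adjusted p = 0.00105) than in uninjured cells. Against 48 h the d14 values were -0.80 ± 0.13 for Slc25a13 (adjusted p = 0.000852), lost without TMM (-0.21, adjusted p = 0.278), and 0.49 ± 0.12 for Slc25a12 (adjusted p = 0.00972). The call of Slc25a13 at 48 h (-0.37 ± 0.12, adjusted p = 0.0425) was lost on leaving out replicate 1 or 3 of uninjured cells, replicate 1 or 3 of 48 h or replicate 3 of d14 (adjusted p = 0.0588 to 0.160). The count ratio of Slc25a12 to Slc25a13 was 0.482, 0.573 and 0.474 in uninjured cells, 0.756, 0.669 and 0.767 at 48 h and 1.38, 2.06 and 1.96 at d14. Here too no groups overlapped, and only at d14 did Slc25a12 counts exceed those of Slc25a13 (exact permutation p = 0.1 for each pair of groups, adjusted p = 0.175).

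**Figure D3:**
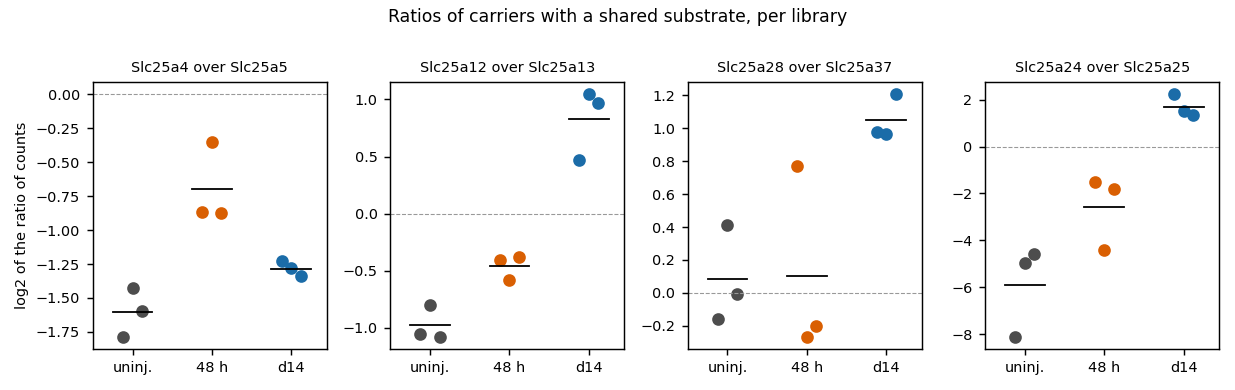
Log2 ratio of the counts of 2 carriers with a shared substrate in each library, with the group mean as a line; a value above 0 means more counts of the first-named gene. For Slc25a12 over Slc25a13 the d14 libraries alone lie above 0, and for Slc25a4 over Slc25a5 all 9 lie below 0 with 48 h highest.

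Slc25a1, which exports citrate for fatty acid and sterol synthesis, was at 102, 103 and 110 CPM in uninjured cells, 88.5, 111 and 100 at 48 h and 60.5, 51.7 and 57.7 at d14. The d14 values lay under all others, and the remaining groups overlapped. Slc25a1 was lower at d14 than in uninjured cells (-0.89 ± 0.12, adjusted p = 8.17e-05) and than at 48 h (-0.82 ± 0.12, adjusted p = 0.000453), and both calls were lost without TMM (-0.32 and -0.24, adjusted p = 0.092 and 0.207). Slc25a21, which carries oxoadipate and oxoglutarate in lysine breakdown, was at 24.2, 19.5 and 20.3 CPM in uninjured cells, 13.6, 11.9 and 9.03 at 48 h and 4.44, 5.03 and 5.47 at d14. It descended with no overlap, by 0.89 ± 0.19 at 48 h (adjusted p = 0.0057) and by 2.10 ± 0.20 at d14 (adjusted p = 7.92e-06) from the uninjured level. Slc25a22, a glutamate carrier, fell from 20.5 ± 1.23 CPM in uninjured cells to 10.7 ± 0.846 at d14 (-0.94 ± 0.27, adjusted p = 0.0132), a call lost without TMM (adjusted p = 0.260), and its 48 h libraries spread from 12.0 to 30.9 CPM. Slc25a22 was also lower at d14 than at 48 h (-0.98 ± 0.27, adjusted p = 0.0174), by 0.64 without 48 h replicate 2 and not called without d14 replicate 2 or 3 (adjusted p = 0.0602 and 0.0553). Slc25a11, the oxoglutarate/malate carrier of the malate-aspartate shuttle, was lower at d14 (116 ± 8.16 to 80.5 ± 10.0 CPM, -0.53 ± 0.12, adjusted p = 0.00454) but stood at 0.02 without TMM.

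**Figure D4:**
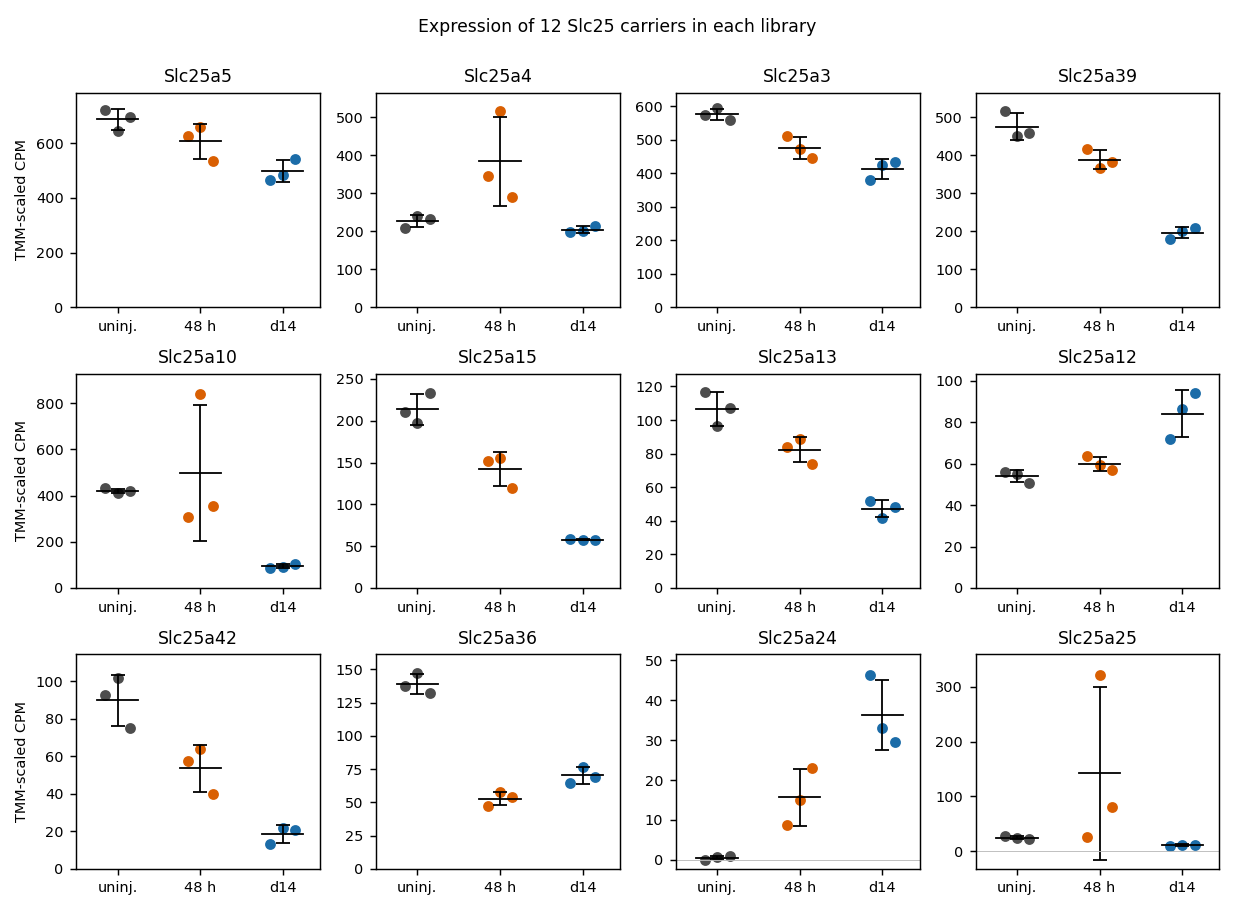
TMM-scaled CPM of 12 Slc25 genes in each library (points), with the group mean and SD (lines), on linear axes. Slc25a10, Slc25a15, Slc25a13, Slc25a42 and Slc25a39 are lowest at d14 and Slc25a12 and Slc25a24 highest, while Slc25a4 and Slc25a25 have their highest libraries at 48 h; without TMM the lower level of Slc25a5 and Slc25a3 at d14 turns.

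Among carriers of amino acids, carnitine and choline, 4 of 7 tested were lower and 1 higher at 48 h than in uninjured cells, and 5 were lower at d14 (2 without TMM). None was higher at d14 by edgeR, at an unadjusted p under 0.05, by DESeq2 or by limma voom. Slc25a15 (ENSMUSG00000031482.9, chromosome 8, 22375551 to 22398597), which exchanges ornithine and citrulline, was at 210, 197 and 233 CPM in uninjured cells, 152, 156 and 119 at 48 h and 58.7, 57.2 and 57.1 at d14. The groups were well apart and the d14 libraries nearly equal. Slc25a15 was lower by 0.58 ± 0.12 at 48 h (adjusted p = 0.0052) and by 1.89 ± 0.13 at d14 (0.27-fold, adjusted p = 7.03e-07) than in uninjured cells, and the step between 48 h and d14 was -1.30 ± 0.13 (adjusted p = 5.6e-05). Otc, a mitochondrial enzyme of the liver urea cycle that meets ornithine behind this carrier, had no count in any library, nor had Cps1 of the same cycle.

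Slc25a20, which brings acylcarnitines into the matrix for fatty acid oxidation, was at 40.0, 35.2 and 31.1 CPM in uninjured cells, 59.1, 133 and 53.7 at 48 h and 25.2, 25.5 and 28.8 at d14. No groups overlapped, and 48 h replicate 2 stood over the other libraries. Slc25a20 was higher at 48 h than in uninjured cells by 1.20 ± 0.30 (adjusted p = 0.0159). The difference was 0.67 without 48 h replicate 2, and the call was lost without uninjured replicate 2 or 3 (adjusted p = 0.0607 and 0.0637). It was lower at d14 than at 48 h by 1.61 ± 0.31 (adjusted p = 0.00372). For d14 against uninjured cells the value was -0.42 ± 0.30 (adjusted p = 0.288), which passed without 48 h replicate 2 (adjusted p = 0.0142) and with only the 2 groups compared (-0.46, adjusted p = 0.00962). Without TMM this difference had the other sign. Cpt1a, whose enzyme makes the acylcarnitines, was at 446 ± 36.0, 345 ± 83.8 and 385 ± 69.3 CPM and was not called in any comparison, but was higher at d14 than at 48 h without TMM (0.72, adjusted p = 0.00351).

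Slc25a48, a choline carrier, went from 42.4, 38.2 and 42.6 CPM in uninjured cells to 30.7, 23.4 and 21.8 at 48 h and 17.2, 16.4 and 15.6 at d14. On this scale it too descended without overlap, though d14 against 48 h moved from -0.63 to -0.05 without TMM and lost its call (adjusted p = 0.84). Slc25a48 had log2 fold changes against uninjured cells of -0.69 ± 0.14 (adjusted p = 0.00413) and -1.32 ± 0.14 (adjusted p = 2.06e-05). Slc25a45 was lowest at 48 h, with 16.3 to 21.3 CPM there, 29.5 to 39.0 in uninjured cells and 23.4 to 28.3 at d14. Its call at 48 h (-0.81 ± 0.15, adjusted p = 0.00283) held in every alternative run, while the one at d14 (-0.40 ± 0.15, adjusted p = 0.0482) was 0.16 without TMM and was lost on leaving out replicate 1 or 3 of uninjured cells, replicate 1 of 48 h or replicate 1 or 2 of d14 (adjusted p = 0.0507 to 0.210). Slc25a44, a carrier of branched-chain amino acids, was at 49.0 ± 5.01, 37.6 ± 5.16 and 34.8 ± 1.35 CPM. It was called lower at 48 h (-0.38 ± 0.13, adjusted p = 0.0433), a call lost when any single library except 48 h replicate 3 was left out (adjusted p = 0.0572 to 0.167), and at d14 (-0.49 ± 0.13, adjusted p = 0.0074), where it stood at 0.08 without TMM. Without TMM Slc25a44 was higher at d14 than at 48 h (0.46, adjusted p = 0.0295). Slc25a38, which supplies glycine for heme synthesis, was lower at d14 (22.0 ± 1.81 to 13.1 ± 2.52 CPM, -0.75 ± 0.17, adjusted p = 0.00403), not so without TMM (adjusted p = 0.533). Slc25a29, a carrier of basic amino acids at 1.11 to 3.56 CPM, was not called by edgeR in any comparison, but was higher at d14 than at 48 h without TMM (1.34, adjusted p = 0.0412).

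Carriers of cofactors and pyrimidine nucleotides supply the enzymes of the matrix and the making of its DNA and RNA. Of 9 genes, all tested, 4 were lower at 48 h and 8 at d14 than in uninjured cells (4 and 3 without TMM). None was higher in either comparison by edgeR, at an unadjusted p under 0.05, by DESeq2 or by limma voom. Slc25a36 (ENSMUSG00000032449.13, chromosome 9, 97074961 to 97111157), a carrier of pyrimidine nucleotides into the matrix, was at 137, 147 and 132 CPM in uninjured cells, 47.4, 57.3 and 53.7 at 48 h and 64.5, 76.8 and 69.3 at d14. The 48 h libraries were lowest and the d14 libraries between, with no overlap between groups. Slc25a36 was lower by 1.40 ± 0.12 at 48 h (0.38-fold, adjusted p = 1.13e-05) and by 0.98 ± 0.11 at d14 (adjusted p = 3.57e-05). The step up from 48 h to d14 was 0.41 ± 0.11 (adjusted p = 0.018) and was lost without 48 h replicate 1 or d14 replicate 2 (adjusted p = 0.0546 and 0.0707). Slc25a33, the other pyrimidine nucleotide carrier, was at 6.91 ± 1.00, 3.94 ± 1.64 and 3.19 ± 0.855 CPM, and its lower level at d14 (-1.11 ± 0.36, adjusted p = 0.0275) was not called when any uninjured library or d14 replicate 1 or 2 was left out (adjusted p = 0.0517 to 0.0998) nor without TMM (adjusted p = 0.249).

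The promoter stretch of Slc25a36 is shown as the second member promoter with the CRE letters. It is chr9:97111158-97111291 on the minus strand of GRCm38.p6, the 134 bases of the RefSeq window that lie before the annotated gene, and capitals mark the CACGTG and TGACGTCA letters, which begin 187 and 161 bases before the RefSeq start and do not overlap.
Slc25a36: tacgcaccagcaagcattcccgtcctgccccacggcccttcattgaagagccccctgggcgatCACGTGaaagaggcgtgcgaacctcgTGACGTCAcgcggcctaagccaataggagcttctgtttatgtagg
At 48 h Slc25a36 was lower than in uninjured cells and Slc25a25 was higher in 2 of 3 libraries. Whether the letters have a part in either value was not tested.

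Slc25a42 (ENSMUSG00000002346.16, chromosome 8, 70184340 to 70212305), which carries coenzyme A into the matrix, was at 92.8, 101.5 and 74.9 CPM in uninjured cells, 57.6, 63.8 and 39.7 at 48 h and 12.99, 21.5 and 20.8 at d14. The groups did not overlap. Its decrease at d14 was the steepest of the family (-2.28 ± 0.23, 0.205-fold, adjusted p = 1.56e-05), and the step from 48 h was -1.54 ± 0.23 (adjusted p = 0.000672). At 48 h it was lower by 0.75 ± 0.22 (adjusted p = 0.027), which was lost without uninjured replicate 1 or 2 or 48 h replicate 3 (adjusted p = 0.0752 to 0.0911). Slc25a16, linked to the same cofactor, was at 100, 95.5 and 105 CPM in uninjured cells, 61.8, 91.7 and 55.3 at 48 h and 40.1, 43.1 and 47.0 at d14. Here again the groups lay apart, with 48 h replicate 2 nearest to uninjured cells. Slc25a16 was lower at d14 by 1.21 ± 0.17 (adjusted p = 0.000144) than in uninjured cells and by 0.67 ± 0.17 (adjusted p = 0.0114) than at 48 h, the latter by 0.43 without 48 h replicate 2 and not called without TMM (adjusted p = 0.627). Its call at 48 h (-0.54 ± 0.17, adjusted p = 0.0333) was lost when any uninjured library or 48 h replicate 1 or 3 was left out (adjusted p = 0.0653 to 0.112).

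Slc25a51, the mitochondrial NAD carrier, was at 203, 203 and 221 CPM in uninjured cells, 163, 123 and 144 at 48 h and 108, 121 and 126 at d14. Uninjured cells were above all other libraries, and 48 h and d14 overlapped. Its log2 fold changes were -0.54 ± 0.12 at 48 h (adjusted p = 0.0078) and -0.82 ± 0.12 at d14 (adjusted p = 0.000261), the second not called without TMM (adjusted p = 0.102). Slc25a17, the carrier of coenzyme A and NAD in peroxisomes, was at 63.8 ± 6.87, 81.0 ± 19.7 and 38.8 ± 3.33 CPM. It was lower at d14 than in uninjured cells (-0.72 ± 0.16, adjusted p = 0.00393), not so without TMM (adjusted p = 0.519), and than at 48 h (-1.06 ± 0.17, adjusted p = 0.000844). Slc25a26, which carries S-adenosylmethionine, was at 12.2 ± 1.02, 9.30 ± 0.714 and 7.87 ± 1.61 CPM. Its call at d14 (-0.63 ± 0.20, adjusted p = 0.0229) was lost without TMM (adjusted p = 0.751) and without uninjured replicate 1 or 3 or d14 replicate 1 or 3 (adjusted p = 0.053 to 0.0952). The folate and FAD carrier Slc25a32, at 15.1 ± 2.02, 12.96 ± 0.546 and 12.0 ± 3.53 CPM, was the one gene of this role with no call, though d14 against uninjured cells passed without d14 replicate 3 (-0.60, adjusted p = 0.0319).

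Iron and glutathione carriers serve heme and iron-sulfur cluster assembly and the redox state of the matrix. At 48 h none of the 4 was called by edgeR, 1 was lower at an unadjusted p under 0.05, and DESeq2 and limma voom each called 1, Slc25a39. At d14 2 were lower than in uninjured cells (1 lower and 1 higher without TMM). Slc25a39 (ENSMUSG00000018677.9, chromosome 11, 102402985 to 102407946), which imports glutathione, was at 516, 451 and 459 CPM in uninjured cells, 416, 366 and 383 at 48 h and 180, 201 and 208 at d14. No groups overlapped, and the d14 libraries were far under the others. Slc25a39 was lower at d14 than in uninjured cells by 1.28 ± 0.12 (0.412-fold, adjusted p = 6.08e-06) and than at 48 h by 0.99 ± 0.12 (adjusted p = 0.000151), with -0.29 ± 0.12 (adjusted p = 0.0809) at 48 h. Its relative Slc25a40 was at 7.95 ± 0.655, 6.35 ± 3.11 and 5.11 ± 0.804 CPM and was not called by edgeR (-0.64 for d14 against uninjured cells, adjusted p = 0.156). The d14 values of Slc25a40 lay under the uninjured ones, and limma voom (adjusted p = 0.0265) and a fit of only the 2 groups (adjusted p = 0.0234) called it lower.

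The mitoferrins import iron. Slc25a37, the mitoferrin of red cell precursors, was at 33.5, 29.3 and 27.7 CPM in uninjured cells, 19.6, 29.9 and 25.3 at 48 h and 14.3, 21.2 and 15.9 at d14. Slc25a28, the mitoferrin of other tissues, was at 30.0, 39.0 and 27.6 CPM, then 33.5, 24.9 and 22.0, then 28.0, 41.4 and 36.8. Slc25a28 overlapped between all groups, while the d14 values of Slc25a37 lay under the uninjured ones. Slc25a37 was lower at d14 by 0.82 ± 0.19 (adjusted p = 0.00392), not so without TMM (adjusted p = 0.254), and Slc25a28 was at 0.14 ± 0.20 (adjusted p = 0.613), or 0.68 (adjusted p = 0.00735) without TMM. For d14 against 48 h the main fit called neither. Slc25a28 was then higher without TMM (0.96, adjusted p = 0.00118) and without 48 h replicate 1 (0.61, adjusted p = 0.0434). DESeq2 called Slc25a37 lower in that comparison (-0.56, adjusted p = 0.0354). The count ratio of Slc25a28 to Slc25a37 was 0.898, 1.33 and 0.997 in uninjured cells, 1.70, 0.832 and 0.869 at 48 h and 1.96, 1.95 and 2.30 at d14. The d14 ratios lay above all others (exact permutation p = 0.1, adjusted p = 0.175 against either group). Erythroid markers summed to 56.7 to 165 CPM in uninjured, 106 to 190 in 48 h and 14.8 to 122 in d14 libraries, with 0 of the 5 tested called by edgeR in either comparison with uninjured cells, and their part in the mitoferrin values was not tested.

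Of the uncoupling-protein-like carriers, Slc25a27 (also named UCP4), best known from brain, was at 0.651, 0.386 and 0.660 CPM in uninjured cells, 0.0561, 0.287 and 0.599 at 48 h and 3.87, 3.64 and 2.48 at d14. All d14 libraries were above all others. It was higher at d14 than in uninjured cells by 2.54 ± 0.69 (adjusted p = 0.0105) and than at 48 h by 3.34 ± 0.75 (adjusted p = 0.00656), the latter by 4.56 without 48 h replicate 3. In 48 h replicates 1 and 2 Slc25a27 lay under the 0.168 and 0.431 CPM that 3 counts make there. The size of the step from 48 h is therefore uncertain. Slc25a30, a kidney-rich carrier at 68.9 to 121 CPM in the 9 libraries, and Slc25a14 at 1.76 to 3.66 CPM were not called by edgeR in any comparison. Without TMM Slc25a30 was higher at d14 than in uninjured cells (0.75, adjusted p = 0.0113) and than at 48 h (0.65, adjusted p = 0.0258). DESeq2 called Slc25a14 lower at d14 than in uninjured cells (-0.71, adjusted p = 0.0432), where edgeR gave -0.69 (adjusted p = 0.145).

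Among carriers whose substrate is not settled, Slc25a34 was at 26.2, 31.6 and 25.7 CPM in uninjured cells, 34.7, 44.0 and 26.0 at 48 h and 6.02, 8.12 and 9.03 at d14. The d14 values were under all others and the remaining groups overlapped. Slc25a34 was lower at d14 by 1.85 ± 0.21 (adjusted p = 3.36e-05) than in uninjured cells and by 2.16 ± 0.22 (adjusted p = 6.3e-05) than at 48 h. Its close relative Slc25a35 went the other way, from 4.28, 5.20 and 3.27 CPM in uninjured cells and 5.67, 3.31 and 5.49 at 48 h to 9.47, 13.3 and 14.1 at d14. Slc25a35 was higher at d14 by 1.53 ± 0.29 (adjusted p = 0.00109) than in uninjured cells and by 1.33 ± 0.29 (adjusted p = 0.00571) than at 48 h. It overlaps Rangrf on the opposite strand, so that reads of the 2 genes cannot be told apart if strand was not used. The same holds over shorter annotated overlaps for Slc25a10, Slc25a11, Slc25a18, Slc25a21, Slc25a23, Slc25a26, Slc25a33, Slc25a37 and Slc25a46. Slc25a43 had no count in uninjured cells, 0.112, 0 and 0.599 CPM at 48 h and 2.15, 0.950 and 0.952 at d14. Of its 15 counts at 48 h 13 came from replicate 3, and the 2 left without that library are under the 3 counts that a count of 0 allows. Against 3 counts over the uninjured group it was at least 12.3-fold higher at 48 h and at least 50.4-fold higher at d14, with adjusted p = 0.0247 and 0.0025. Slc25a43 passed the low-count filter only through its d14 libraries, and it was filtered out when 48 h and uninjured cells were fitted alone. Its p-values are therefore not taken as support for a difference. The call at 48 h was lost when any uninjured library or 48 h replicate 3 was left out (adjusted p = 0.0539 to 0.132). Slc25a46, which acts in the outer membrane in mitochondrial dynamics, was at 47.2 ± 2.36, 43.3 ± 7.49 and 34.5 ± 3.10 CPM. Its call at d14 (-0.45 ± 0.14, adjusted p = 0.0187) was lost without uninjured replicate 1 or 3 or d14 replicate 3 (adjusted p = 0.058 to 0.0785), and it stood at 0.12 without TMM. Slc25a47 and Slc25a53, at 0.168 to 1.87 and 0.449 to 2.87 CPM, were not called.

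Genes that work beside the carriers are given next, from lists that overlap in none of their genes with the Slc25 family. Over the whole series, calls against uninjured cells had a rate of 17.4% upward and 11.7% downward for the 48 h group. For the d14 group these rates were 25.1% and 20.7%, or 47.1% and 9.13% without TMM. Whether a list below, or a role above, departs from these rates was not tested, so the counts only describe them. Of 19 other transport genes of the mitochondrial membranes 1 was higher and 7 lower at 48 h, and 2 were higher and 11 lower at d14, than in uninjured cells, the latter 6 and 4 without TMM. The 7 lower at 48 h were 4 without uninjured replicate 1. Vdac1, the main pore of the outer membrane, was at 544 ± 32.0, 427 ± 9.28 and 243 ± 17.9 CPM (d14 against uninjured cells -1.16 ± 0.11, adjusted p = 8.69e-06). Mpc1, which encodes a subunit of the pyruvate carrier, was lower at d14 by 1.24 ± 0.14 (adjusted p = 3.28e-05) and the serine transporter gene Sfxn1 by 1.74 ± 0.11 (adjusted p = 4.83e-07). Its relative Sfxn3 was at 1.46 ± 0.428, 10.4 ± 3.34 and 43.9 ± 5.01 CPM and was higher at d14 by 4.90 ± 0.28 (adjusted p = 2.27e-07). These 4 genes kept their direction and call in this comparison without TMM.

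Of 10 genes that import carriers into the inner membrane 6 were lower at d14 than in uninjured cells (2 lower and 2 higher without TMM). At 48 h 1 was higher, a call kept when 48 h replicate 3 was left out and lost without any other library, and 1 was lower, or 3 without 48 h replicate 2. Of 7 genes of mitochondrial biogenesis 3 were lower at d14, but 1 was lower and 3 were higher without TMM. At 48 h 2 of these were lower, and 1 when any uninjured library, 48 h replicate 2 or 3 or d14 replicate 2 was left out. Tfam, which packages mitochondrial DNA, was at -0.71 ± 0.12 (adjusted p = 0.0005) at d14, and at -0.15 (adjusted p = 0.345) without TMM. Ppargc1a, the coactivator of biogenesis, was at 50.2 ± 6.75, 39.2 ± 9.09 and 68.8 ± 9.52 CPM and was higher at d14 than at 48 h (0.82 ± 0.18, adjusted p = 0.00608). Of 22 tested enzymes whose substrates pass through the carriers 5 were higher and 8 lower at 48 h, and 4 were higher and 13 lower at d14 (7 and 9 without TMM).

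Ucp2, a member of the same protein family under another symbol, was at 6.91, 8.60 and 5.10 CPM in uninjured cells, 94.4, 570 and 207 at 48 h and 178, 149 and 176 at d14. Every Sox9-labelled library was above every uninjured one, and 48 h replicate 2 was highest. Ucp2 was higher by 5.40 ± 0.68 at 48 h (adjusted p = 0.000901), by 4.46 without 48 h replicate 2, and by 4.61 ± 0.66 at d14 (adjusted p = 0.000693). Of the other family genes with such symbols, Ucp1 had no count in uninjured cells and at 48 h, Ucp3 was not called, Mtch1 was not called with TMM but was higher without it (0.58 for d14 against uninjured cells, adjusted p = 0.00209), and Mtch2 was lower at d14 (-0.50 ± 0.12, adjusted p = 0.00537) but stood at 0.07 without TMM. Ucp2 is also expressed in macrophages, whose markers summed to 22.8 to 26.8, 83.9 to 306 and 57.5 to 124 CPM. The part of such cells in the Ucp2 values was not tested.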

How the data were processed

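Polyadenylated RNA of sorted cells was sequenced from strand-specific libraries made from up to 30 ng of RNA, per the labels' protocols. The deposited table holds whole-number expected counts per gene and library, which the authors made from the reads; RSEM 1.2.28, STAR 2.6.1, R 3.6.3, bcl2fastq 2.20 and DESeq2 1.26.0 are listed in the submitters' processing notes without their roles. The annotation release and strand setting of the counting were not given in those sources. The table has 92 spike-in rows, all at 0 and not used, and 0 unused sample columns.

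Members are the 47 rows whose symbol is Slc25a with a number; any of them may be named, as may genes of the companion and marker lists, with library values for up to the 8 largest and 8 smallest called fold changes per comparison. One member and a marker gene entered all counts and sums but are not reported here. Members, lists and tests were chosen with earlier results of these data known. All 55385 genes entered edgeR 4.0.16 (R 4.3.3): filterByExpr (minimum count 10, minimum total 15), TMM, a quasi-likelihood fit with a mean per group over all 9 libraries, robust dispersion, and Benjamini-Hochberg adjustment over the 15519 genes kept. A gene is called at an adjusted p under 0.05. The SE is the log2 fold change over the square root of F. The fit was tested on simulated data. Ratios use counts with 0.5 added and an exact permutation test. A count of 0 allows up to 3 counts, for counting error only, since PCR reads are not independent molecules. GENCODE M21, in which 46 of the 47 identifiers have an equal version, gave positions, overlaps and exon lengths in GRCm38 (mm10). Alternatives were other scalings and filters, DESeq2 1.42.0, limma 3.58.1 voom with sample weights, only the 2 groups compared, the replicate number as a block, and each library left out.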

Additional observations from a re-analysis of the deposited data

Results flagged for a closer look

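Members described above whose difference from uninjured cells had opposite signs at 48 h and d14, and whose step from 48 h to d14 passed edgeR's test, are listed here with the log2 fold change of d14 against 48 h. Being lower at d14 after a positive value at 48 h, Slc25a25 was at -3.68, Slc25a10 at -2.41, Slc25a34 at -2.16, Slc25a20 at -1.61, Slc25a17 at -1.06, Slc25a22 at -0.98 and Slc25a4 at -0.91. Higher at d14 after a negative value at 48 h were Slc25a27 at 3.34 and Slc25a23 at 0.54. In 48 h replicates 1 and 2 Slc25a27 had under 3 counts, so the size of its step is uncertain. Of these, Slc25a4, Slc25a20 and Slc25a25 also passed the test at 48 h against uninjured cells. Without TMM the calls of Slc25a4 and Slc25a22 were lost, with values of -0.33 and -0.40. Slc25a4 and Slc25a20 were then above uninjured cells at d14 too, so their place in this list depends on the scaling. Without 48 h replicate 2 the values were -2.26 for Slc25a25, -1.82 for Slc25a10 and -0.64 for Slc25a22. For Slc25a10 and Slc25a22 only 48 h replicate 2 lay above the uninjured range, so their positive values at 48 h, and their place in this list, rest on that library.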

How the results depend on the processing

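Of the 15, 30 and 21 members called at 48 h and d14 against uninjured cells and at d14 against 48 h, 8, 15 and 12 kept their call under each of the 18 alternatives that tested them. For d14 against uninjured cells this includes Slc25a43, which was filtered out at a minimum count of 50 and so was tested in 17 alternatives. Of members called at 48 h 5 were higher, and 3 without the low-count filter, 3 with only the 2 groups compared, 3 with the replicate block and 2 to 5 with a library left out; the 10 lower became 6 to 10 with a library left out. Leaving out a library gave 5 higher and 21 to 27 lower members for d14 against uninjured cells, and 4 to 6 higher and 15 to 17 lower for d14 against 48 h.

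Without TMM, d14 against uninjured cells had 8 higher and 10 lower members and a median of -0.018, and d14 against 48 h had 12 higher, 9 lower and a median of 0.27, with 7746 genes called in place of 5137. In d14 against uninjured cells members called lower then turned, namely Slc25a3 to 0.0784, Slc25a5 to 0.0934, Slc25a11 to 0.0237, Slc25a44 to 0.0796, Slc25a45 to 0.16 and Slc25a46 to 0.12, since leaving out TMM shifts all genes. No other alternative turned a called member.

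Same-numbered libraries of different groups deviated together with r of -0.161 to 0.0494 across genes, none over 0.1, so the numbers do not pair them. With the replicate number as a block 3 higher and 8 lower members were called at 48 h, 5 and 24 for d14 against uninjured cells and 5 and 17 for d14 against 48 h. Depth limited Slc25a2, Slc25a18 and, in uninjured and 48 h cells, Slc25a43, whose levels lay near the 0.0651 to 0.431 CPM that 3 counts make.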
